A study of Mus musculus with 12 samples.

Results

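The transcription factors of the oligodendrocyte lineage followed here are *Olig1*, *Olig2*, *Sox10*, *Sox8*, *Sox6*, *Sox5*, *Nkx2-2*, *Nkx6-2* and *Myrf*, which were chosen by symbol and are 9 of the 18180 genes measured. All 9 had passed the low-expression filter of the authors and were in the table. Bulk RNAseq was performed on EGFR+ cells sorted from 3 end-stage mouse GBMs, T3, T4 and T5. Each tumor gave 4 populations, PDGFRA+, PDGFRA-, GAL1+ and GAL1- (GAL1 is Galectin-1), and so each population has 3 libraries, 1 per tumor, out of 12. PDGFRA and GAL1 were stained separately, so a cell may belong to a PDGFRA population and to a GAL1 population, and a GAL1- library may hold PDGFRA+ cells. All 4 populations share 1 genotype. The mice carried a conditional human EGFR transgene, constitutive loss of Cdkn2a and a conditional luciferase reporter, among other alleles, on a mixed background (C57Bl/6J, 129S4, FVBN/J and Balb/cJ per the labels, with SJL added in the methods). Tumors were started in adult animals of both sexes by intracranial injection of a Cre lentivirus. The study's methods list a vector with TGFa and Cre and a vector with Cre alone, and the promoter that drives Cre is not given in the sources used here. No treatment is given for these tumors. The text of the study describes sorted CD45- cells, whereas the staining it lists for this sort has EGFR plus either PDGFR or Galectin-1 and no CD45.

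Oligodendrocytes, the myelin-forming cells of the central nervous system, arise from oligodendrocyte progenitor cells (OPCs), which depend on PDGFRA signaling. OLIG2 specifies the lineage and SOX10 is switched on downstream of it. NKX2-2 and SOX10 then drive differentiation, SOX5 and SOX6 are known to oppose it, and SOX10 turns on *Myrf*, whose product activates myelin genes in mature cells. OLIG2, SOX10 and their partners are also widely expressed in gliomas.

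The depth of the libraries, as recovered from the deposited values, was 9851175 to 24117541 reads. Levels are log2 CPM (counts scaled to library size, on a log2 scale), and a level of 3 reads, taken as the detection floor, lay between -2.99 and -1.44 depending on the library. This floor covers counting error only. *Pdgfra* ran from 9.95 to 10.81 log2 CPM in PDGFRA+ and from 7.36 to 10.11 in PDGFRA- cells, and *Lgals1*, the gene of GAL1, from 7.41 to 7.95 in GAL1+ and from 6.05 to 6.81 in GAL1- cells. The summed level of 12 pan-leukocyte genes (such as *Ptprc*, which encodes CD45) was lowest in GAL1- cells, at 94.1 to 243 CPM, and reached 634 to 1416 in the PDGFRA+, 725 to 3104 in the PDGFRA- and 2685 to 3741 in the GAL1+ libraries. None of the 12 genes was at 0 in all libraries of a population.

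Promoter windows were matched in RefSeq (GRCm38.p6) for 6 of the 9 factors (11 windows, each from 250 bases before to 50 bases after a transcription start), and *Olig1*, *Sox10* and *Myrf* have none here. The windows were searched on both strands for the E-box CANNTG, the letters that basic helix-loop-helix (bHLH) factors such as OLIG2 read, and for the SOX core ACAAT. An E-box can overlap a SOX core, as in ACAATTG, but did not in the sequences shown. Sequences of 3 factors are given 5′ to 3′, up to the base before the start, because *Olig2* and *Nkx2-2* stand for factors highest in GAL1- cells and *Nkx6-2* for those highest in PDGFRA- cells. Capitals mark E-boxes and SOX cores. *Olig2* is at chr16:91225300-91225549 on the plus strand, *Nkx2-2* at chr2:147186403-147186652 and *Nkx6-2* at chr7:139582798-139583047, both on the minus strand.
Olig2: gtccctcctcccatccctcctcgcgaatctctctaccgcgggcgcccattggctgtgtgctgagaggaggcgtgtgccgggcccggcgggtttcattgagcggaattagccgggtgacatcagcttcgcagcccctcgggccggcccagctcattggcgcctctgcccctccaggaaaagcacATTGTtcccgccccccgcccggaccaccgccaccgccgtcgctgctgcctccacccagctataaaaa
Nkx2-2: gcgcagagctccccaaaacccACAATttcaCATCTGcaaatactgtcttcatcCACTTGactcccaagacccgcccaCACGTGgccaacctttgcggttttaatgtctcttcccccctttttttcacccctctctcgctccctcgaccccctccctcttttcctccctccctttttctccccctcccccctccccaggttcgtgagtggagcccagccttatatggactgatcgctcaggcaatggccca
Nkx6-2: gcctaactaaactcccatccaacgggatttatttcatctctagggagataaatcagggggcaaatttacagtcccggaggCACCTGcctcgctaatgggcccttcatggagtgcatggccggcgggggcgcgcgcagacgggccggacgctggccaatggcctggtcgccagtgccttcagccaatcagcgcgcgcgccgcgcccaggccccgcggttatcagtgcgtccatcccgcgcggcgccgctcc
The *Olig2* window held 0 E-boxes and 1 SOX core, 67 bases before the start. The *Nkx2-2* window held 3 E-boxes and 1 SOX core, and the *Nkx6-2* window held 1 E-box, 170 bases before the start, and 0 SOX cores. The *Sox8* window held 1 E-box and 0 SOX cores, and the *Sox5* window 0 E-boxes and 1 SOX core. The remaining windows were those of *Sox6*, with 1 to 4 E-boxes and 0 to 3 SOX cores each. An E-box occurs in 72.3% and a SOX core in 31% of all 32851 RefSeq windows of this length, so a match is common.

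All 9 factors had their lowest mean level in GAL1+ cells, as shown in the plot of levels by library. The order was GAL1- > PDGFRA+ > PDGFRA- > GAL1+ for *Olig1*, *Olig2*, *Sox10*, *Sox6* and *Sox5*, and GAL1- > PDGFRA- > PDGFRA+ > GAL1+ for *Sox8* and *Nkx2-2*. For *Nkx6-2* and *Myrf* it was PDGFRA- > GAL1- > PDGFRA+ > GAL1+. In bulk samples, fewer cells of a type and less RNA per cell cannot be told apart.

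**Figure D1:**
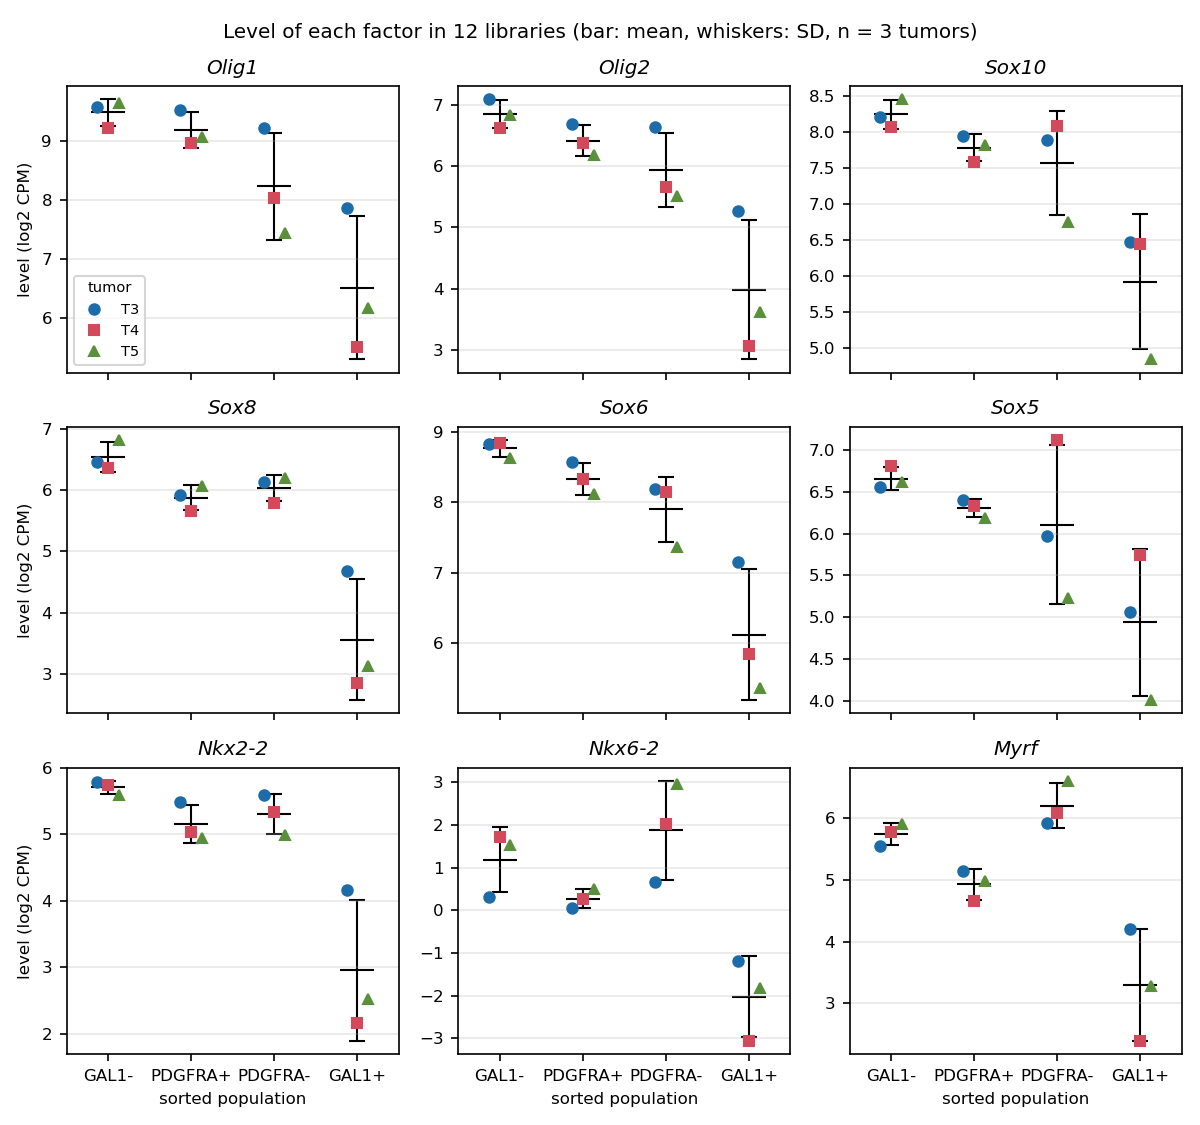
Level of each of the 9 factors (log2 CPM, y axis, a separate scale per panel) in the 4 sorted populations (x axis), with 1 point per library marked by tumor, a bar at the mean and whiskers of 1 SD (n = 3 tumors). The GAL1+ mean is lowest for each factor, though GAL1+ and PDGFRA- libraries overlap for *Olig1* and *Sox5*, and *Nkx6-2* and *Myrf* reach their highest mean in PDGFRA- cells.

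Among the bHLH factors, OLIG1 is encoded beside OLIG2 on chromosome 16 and acts in differentiation and myelination. *Olig1* was at 9.58, 9.23 and 9.65 log2 CPM in GAL1- cells of T3, T4 and T5, at 9.53, 8.97 and 9.06 in PDGFRA+ cells, at 9.22, 8.03 and 7.45 in PDGFRA- cells and at 7.86, 5.50 and 6.18 in GAL1+ cells. The GAL1- and PDGFRA+ libraries lay close together, while the PDGFRA- and GAL1+ libraries were spread out and overlapped, since T3 was the highest tumor in each of them. *Olig2*, which specifies the lineage, was at 7.10, 6.63 and 6.83 in GAL1- cells, at 6.68, 6.38 and 6.18 in PDGFRA+ cells, at 6.64, 5.66 and 5.52 in PDGFRA- cells and at 5.26, 3.07 and 3.62 in GAL1+ cells. For *Olig2* no GAL1+ library reached any other library, and the other 3 populations overlapped. Per kilobase of exon, *Olig1* had the highest level of the 9 factors (mean 7.24 log2 CPM per kb over the 12 libraries) and *Olig2* was at 4.46. The log2 ratio of *Olig1* over *Olig2* within a library had a mean of 2.63 ± 0.17 for GAL1- cells (SD, n = 3), 2.78 ± 0.16 for PDGFRA+ cells, 2.29 ± 0.34 for PDGFRA- cells and 2.53 ± 0.09 for GAL1+ cells. The ratio of the pair moved by under 0.5 between these means, while the level of *Olig1* itself fell by 2.97 on the log2 scale from GAL1- to GAL1+ cells.

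The SOXE factors SOX10 and SOX8 bind the same core, with SOX10 required for terminal differentiation and SOX8 in a partly overlapping role. *Sox10* was at 8.21, 8.07 and 8.46 log2 CPM in GAL1- cells of T3, T4 and T5, at 7.95, 7.58 and 7.82 in PDGFRA+ cells, at 7.89, 8.09 and 6.74 in PDGFRA- cells and at 6.48, 6.45 and 4.84 in GAL1+ cells. In the PDGFRA- and GAL1+ populations T5 was the lowest *Sox10* library, whereas for *Olig2* T4 was lowest in GAL1+ cells. *Sox8* was at 6.46, 6.36 and 6.82 in GAL1- cells, at 5.91, 5.66 and 6.06 in PDGFRA+ cells, at 6.13, 5.79 and 6.19 in PDGFRA- cells and at 4.68, 2.85 and 3.14 in GAL1+ cells. The PDGFRA+ and PDGFRA- libraries overlapped for *Sox8*, all lay below the GAL1- libraries and all lay above the GAL1+ libraries. Per kilobase, *Sox10* was second to *Olig1* (5.77 log2 CPM per kb) and *Sox8* was at 3.86.

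The SOXD factors SOX6 and SOX5 carry no activation domain and are known to hold back differentiation of progenitors. *Sox6* was at 8.83, 8.84 and 8.63 log2 CPM in GAL1- cells of T3, T4 and T5, at 8.57, 8.32 and 8.11 in PDGFRA+ cells, at 8.19, 8.15 and 7.36 in PDGFRA- cells and at 7.15, 5.84 and 5.36 in GAL1+ cells. Each GAL1- library was above every other library for *Sox6*, and each GAL1+ library was below. *Sox5* was at 6.56, 6.81 and 6.61 in GAL1- cells, at 6.40, 6.33 and 6.18 in PDGFRA+ cells, at 5.97, 7.12 and 5.23 in PDGFRA- cells and at 5.06, 5.75 and 4.00 in GAL1+ cells. The T4 library was the highest of its population in both PDGFRA- and GAL1+ cells for *Sox5*, and its PDGFRA- level was the highest of all 12 libraries. Their exon unions are long (14.83 kb for *Sox6* and 14.38 kb for *Sox5*), which places *Sox6* at 3.89 and *Sox5* at 2.16 log2 CPM per kb.

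Among the homeodomain factors, NKX2-2 promotes differentiation and NKX6-2 is known for its role in myelinating oligodendrocytes. *Nkx2-2* was at 5.78, 5.74 and 5.59 log2 CPM in GAL1- cells of T3, T4 and T5, at 5.48, 5.04 and 4.94 in PDGFRA+ cells, at 5.59, 5.34 and 4.99 in PDGFRA- cells and at 4.16, 2.17 and 2.53 in GAL1+ cells. The PDGFRA+ and PDGFRA- libraries overlapped, and the GAL1+ libraries lay apart below them. *Nkx6-2* was at 0.31, 1.72 and 1.53 in GAL1- cells, at 0.05, 0.26 and 0.49 in PDGFRA+ cells, at 0.65, 2.02 and 2.96 in PDGFRA- cells and at -1.18, -3.07 and -1.82 in GAL1+ cells. *Nkx6-2* was the scarcest factor (-0.60 log2 CPM per kb), and its GAL1+ libraries held only 7, 1 and 3 reads, so that 2 of 3 were at or under the floor. Over its 3 libraries, the PDGFRA- population held 147 *Nkx6-2* reads, GAL1- cells 183, PDGFRA+ cells 59 and GAL1+ cells 11. Scaled by depth, this is a ratio over GAL1+ cells of 15.1 (95% counting interval 8.22 to 31) for PDGFRA-, 9.14 (4.99 to 18.6) for GAL1- and 4.5 (2.34 to 9.49) for PDGFRA+ cells. These intervals cover counting error only and leave out the spread between tumors, and 83 of the 147 PDGFRA- reads came from T5. *Nkx2-2* was at 3.25 log2 CPM per kb.

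MYRF is a membrane-bound factor whose released N-terminal part activates myelin genes. *Myrf* was at 5.55, 5.77 and 5.91 log2 CPM in GAL1- cells of T3, T4 and T5, at 5.15, 4.66 and 4.97 in PDGFRA+ cells, at 5.91, 6.08 and 6.61 in PDGFRA- cells and at 4.21, 2.40 and 3.28 in GAL1+ cells. The 4 populations of *Myrf* did not overlap in any library, with PDGFRA- cells highest and GAL1+ cells lowest, but the lowest PDGFRA- and the highest GAL1- library were both at 5.91. Its level per kilobase was 1.94 log2 CPM per kb.

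Reads of some factors can include those of a neighbor. In GENCODE M21 (GRCm38), exons of *Olig1*, *Sox8*, *Sox5*, *Nkx2-2* and *Nkx6-2* share bases with a gene on the other strand, and the strand setting of the counting is not given in the sources used here. *Nkx6-2* shares exon bases with *Inpp5a*, which ran from 3.54 to 4.80 log2 CPM over the 12 libraries and overlapped between GAL1+ (4.17 to 4.67) and PDGFRA- cells (3.94 to 4.80). The share of *Nkx6-2* reads that came from *Inpp5a* was not tested.

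PDGFRA+ and GAL1+ cells were compared to find what separates these EGFR+ populations. All 9 factors were higher in PDGFRA+ cells in limma's moderated test with the tumor as a block (p adjusted by Benjamini-Hochberg across the whole table, called under 0.05), with 20.9% of all genes called higher. The median log2 fold change was 2.22 over the 9 factors and 0.006 over all genes. *Olig1*, *Olig2*, *Sox8*, *Sox6* and *Nkx6-2* were named by the study for this comparison of the same libraries, and their direction is therefore not independent evidence. The fold change was largest for *Olig1*, at 2.67 on the log2 scale (standard error 0.38, adjusted p = 0.00172), followed by *Olig2* at 2.43 (0.31, adjusted p = 0.00143). *Sox8*, *Sox6* and *Nkx2-2* were close behind, at 2.32, 2.22 and 2.20. The smallest were *Sox10* at 1.86 (standard error 0.38, adjusted p = 0.00567), *Myrf* at 1.63 (0.34, adjusted p = 0.00623) and *Sox5* at 1.37 (0.33, adjusted p = 0.0115). *Nkx6-2* was at 2.29 (standard error 0.61, adjusted p = 0.0169), a fitted value that depends on the offset because GAL1+ cells held so few reads, and with log2(CPM + 1) it was 0.82 and not called (adjusted p = 0.0750). Every factor was higher in PDGFRA+ cells in 3 of 3 tumors and no PDGFRA+ library overlapped a GAL1+ library, a separation that 23.5% of all genes showed. Without the block 8 of 9 factors were called, beside 12.2% of all genes called higher, and *Sox5* was not (adjusted p = 0.0641). The 12 pan-leukocyte genes went the other way, all called lower in PDGFRA+ cells (median log2 fold change -1.56), as were 9 of 9 macrophage and 5 of 9 microglia genes, and their part in the difference of the factors was not tested. Leaving out a tumor left 6 to 8 factors called, and the share of all genes called in these fits is not given here. Without T3, *Sox10* and *Sox5* were not called (adjusted p = 0.0625 and 0.12), without T4 *Nkx6-2* was not (0.0909), and without T5 *Sox5*, *Nkx6-2* and *Myrf* were not (0.0539, 0.0967 and 0.0569). The difference was smallest in T3 for 7 of the 9 factors, from 0.94 for *Myrf* to 1.67 for *Olig1*. For *Sox10* and *Sox5* it was smallest in T4, at 1.14 and 0.59.

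**Figure D2:**
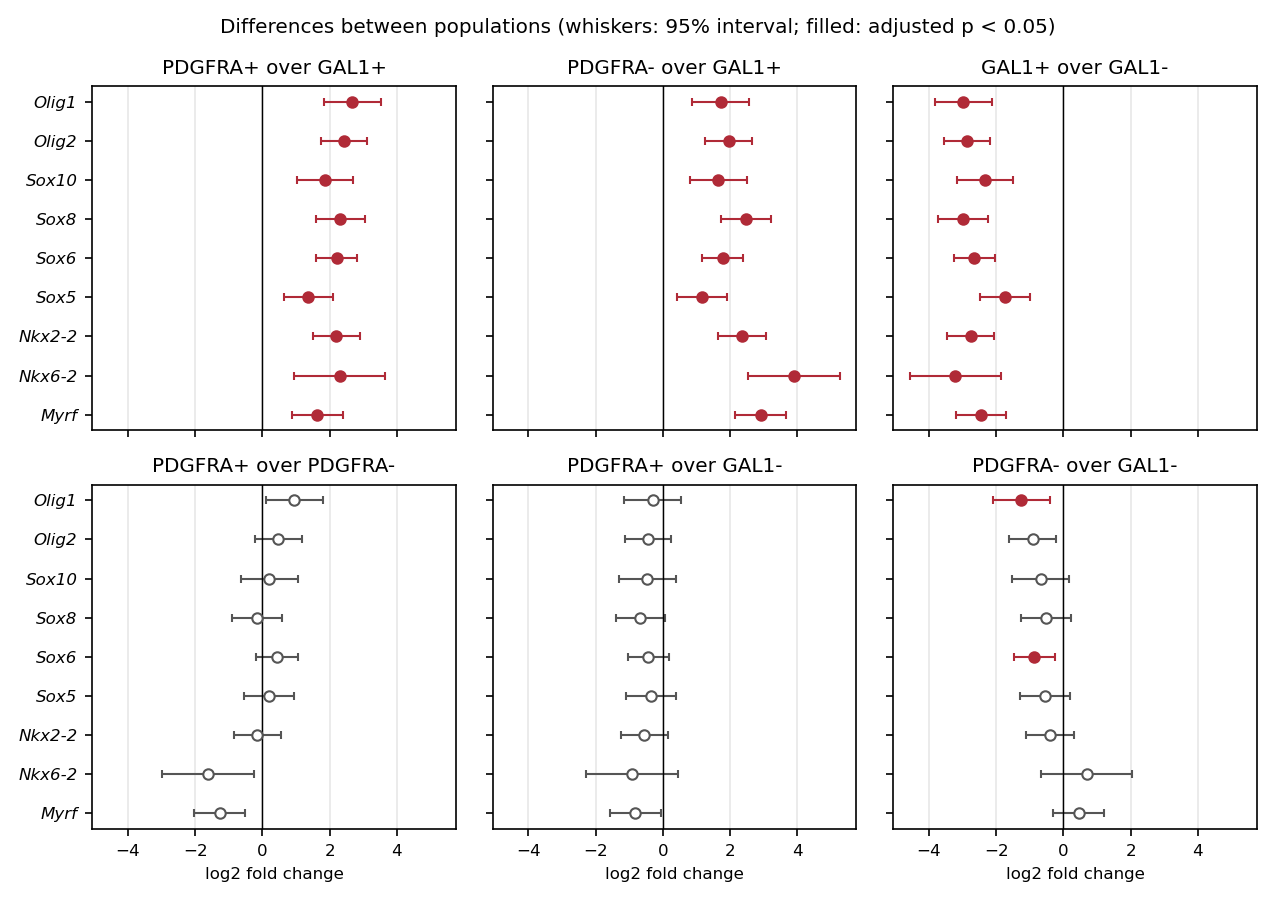
Log2 fold change (x axis) of each factor (y axis) in 6 comparisons of populations, with whiskers of the 95% interval from the limma fit and filled red points where the Benjamini-Hochberg adjusted p was under 0.05. All 9 factors are filled in the 3 comparisons with GAL1+ cells, 2 are filled in PDGFRA- over GAL1- and 0 in the other comparisons.

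GAL1+ and GAL1- cells had the largest median difference of the 6 comparisons, although *Nkx6-2* and *Myrf* differed more between PDGFRA- and GAL1+ cells. All 9 factors were lower in GAL1+ cells, beside 29.3% of all genes called lower, and without the block the count was also 9, beside 22.8% of all genes. The median log2 fold change was -2.75 over the factors and -0.03 over all genes. *Sox8*, *Olig1*, *Olig2* and *Nkx2-2* fell by 2.99, 2.97, 2.87 and 2.75 on the log2 scale, *Sox6* by 2.65, *Myrf* by 2.45 and *Sox10* by 2.33. *Sox5* fell by 1.72 (standard error 0.33, adjusted p = 0.00163), the smallest of the 9. *Nkx6-2* had a fitted value of -3.21 (standard error 0.61, adjusted p = 0.00152) that depends on the offset, as in the comparison with PDGFRA+ cells. The 9 factors were lower in 3 of 3 tumors without overlap, as were 30.5% of all genes. In the same comparison all 12 pan-leukocyte, 9 macrophage, 9 microglia and 9 endothelial genes measured were higher in GAL1+ cells, with medians of 4.35, 5.95, 4.52 and 2.70, and their part in the result was not tested.

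PDGFRA- cells also exceeded GAL1+ cells. All 9 factors were higher in PDGFRA- cells with the block, beside 13.2% of all genes called higher, and the median was 1.95 against 0.04 over all genes. The order of the factors differed from that in PDGFRA+ over GAL1+. *Nkx6-2* had the largest fitted value, 3.90 (standard error 0.61, adjusted p = 0.00708), and *Myrf* the next, 2.90 (0.34, adjusted p = 0.00411). *Sox8* and *Nkx2-2* followed at 2.48 and 2.35, then *Olig2* at 1.95, *Sox6* at 1.78, *Olig1* at 1.72 and *Sox10* at 1.65. *Sox5* was the smallest at 1.17 (standard error 0.33, adjusted p = 0.0366). The libraries did not overlap for 7 factors, beside 10.9% of all genes, and overlapped for *Olig1* and *Sox5*. The pan-leukocyte genes had a median of -1.18 here, with 1 of 12 called lower in PDGFRA- cells, beside 6 of 9 microglia genes (median -1.78) and 4 of 9 macrophage genes (median -1.25), and their part was not tested. Without the block 6 factors were called, beside 3.4% of all genes called higher, and *Olig1*, *Sox10* and *Sox5* were not (adjusted p = 0.0975, 0.0585 and 0.161). With T4 left out 0 factors and 0% of all genes were called and the fold changes of the factors lay between 1.07 and 3.31.

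PDGFRA+ and PDGFRA- cells were separated by the PDGFRA antibody alone. None of the 9 factors passed limma's test, and 0% of all genes did, with a smallest adjusted p of 0.181 over all genes and 0.254 over the factors. *Pdgfra* itself did not pass, at 1.60 (95% interval 0.675 to 2.524, adjusted p = 0.249), and its difference was smallest in T3, at 0.70. The lack of calls therefore does not show that the populations are alike. At an unadjusted p under 0.05 the count was 3 of 9 factors, beside 11.8% of all genes. These were *Myrf* at -1.27 (95% interval -2.03 to -0.52, adjusted p = 0.254), *Nkx6-2* at -1.61 (-2.97 to -0.25, adjusted p = 0.366) and *Olig1* at 0.96 (0.10 to 1.81, adjusted p = 0.386). *Myrf* and *Nkx6-2* were lower in PDGFRA+ cells in 3 of 3 tumors and the libraries did not overlap, as for 3.43% of all genes. *Olig1*, *Olig2* and *Sox6* were at higher values in PDGFRA+ cells in 3 of 3 tumors, by 0.96, 0.47 and 0.44, with overlapping libraries. *Sox8* and *Nkx2-2* were at -0.16 (95% interval -0.90 to 0.58) and -0.15 (-0.86 to 0.55). *Sox10* and *Sox5* were at 0.21 and 0.20, with T4 opposite to T3 and T5. For these 4 factors the intervals still hold differences of over 0.5 on the log2 scale either way.

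PDGFRA+ and GAL1- cells come from separate stains. All 9 factors had lower values in PDGFRA+ cells in 3 of 3 tumors, by 0.30 (*Olig1*) to 0.92 (*Nkx6-2*) on the log2 scale, and 0 of 9 passed, beside 8.27% of all genes called in either direction and 0.011% called lower. The median was -0.46 over the factors and -0.02 over all genes. *Myrf* had the smallest p (log2 fold change -0.82, 95% interval -1.57 to -0.06, adjusted p = 0.240). The libraries did not overlap for *Sox10*, *Sox8*, *Sox6*, *Sox5*, *Nkx2-2* and *Myrf*, beside 9.22% of all genes. A fit to the 6 libraries of these populations alone called 7 factors lower, beside 18.6% of all genes called in either direction. The share called lower in that fit is not given here. In it *Sox8* had an adjusted p of 0.00115, and *Olig1* and *Nkx6-2* were not called. All 12 pan-leukocyte genes were higher in PDGFRA+ cells here (median 2.78), and their part was not tested.

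PDGFRA- and GAL1- cells differed in *Olig1*, at -1.25 (standard error 0.38, adjusted p = 0.0414), and *Sox6*, at -0.87 (0.27, adjusted p = 0.0463), which were lower in PDGFRA- cells in 3 of 3 tumors. These 2 of 9 factors stand beside 6.88% of all genes called lower. Neither was called without the block (adjusted p = 0.189 and 0.191), nor was any other factor, beside 0.424% of all genes called lower. *Olig2* was at -0.91 (adjusted p = 0.0588), and *Sox10*, *Sox5*, *Sox8* and *Nkx2-2* were between -0.67 and -0.40. *Myrf* and *Nkx6-2* were at 0.46 (95% interval -0.30 to 1.21) and 0.69 (-0.67 to 2.06), higher in PDGFRA- cells in 3 of 3 tumors without passing. The GAL1- libraries lay below the PDGFRA- libraries for *Myrf*, as for 17.7% of all genes, and above them for *Olig1*, *Sox8* and *Sox6*, as for 11.2%. All 12 pan-leukocyte genes were higher in PDGFRA- cells (median 3.10), where they summed to 1179 CPM in T3, 725 in T4 and 3104 in T5. In the same tumors the difference was -0.36, -1.20 and -2.20 for *Olig1* and -0.64, -0.70 and -1.27 for *Sox6*. The part of leukocytes in these differences was not tested.

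Ratios within a library do not depend on its scaling, and they are given with no test in the plot of ratios. The log2 ratio of *Myrf* over *Olig2* was -1.55, -0.86 and -0.92 in GAL1- cells of T3, T4 and T5, -1.54, -1.72 and -1.20 in PDGFRA+ cells, -0.73, 0.42 and 1.08 in PDGFRA- cells and -1.06, -0.68 and -0.34 in GAL1+ cells. It was highest in PDGFRA- cells in each tumor, and in every tumor it was higher in GAL1+ than in PDGFRA+ cells although both genes were lower there. The ratio of *Nkx6-2* over *Nkx2-2* was -3.43 ± 1.46 in PDGFRA- cells and between -4.98 and -4.52 in the other populations, with T3 at -4.94, T4 at -3.32 and T5 at -2.03 in PDGFRA- cells. It too was highest in PDGFRA- cells in each tumor, while the T3 value was within the range of the other populations. For GAL1+ cells this ratio rests on 7, 1 and 3 *Nkx6-2* reads and so depends on the offset.

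The SOX factors had ratios that set T4 apart. The log2 ratio of *Sox10* over *Olig2* was 1.21, 3.38 and 1.22 in GAL1+ cells and 1.25, 2.43 and 1.22 in PDGFRA- cells of T3, T4 and T5, and between 1.12 and 1.64 in the 6 other libraries. The ratio of *Sox5* over *Sox6* was -0.10 in T4 GAL1+ cells and -1.02 in T4 PDGFRA- cells, and between -2.27 and -1.35 in the 10 other libraries. Both ratios were thus highest in these 2 libraries of T4. PDGFRA+ cells exceeded GAL1+ cells on the log2 scale by 2.06, 2.23 and 1.30 for *Sox10* with T3, T4 and T5 left out in turn, and by 1.38, 1.76 and 0.97 for *Sox5*.

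**Figure D3:**
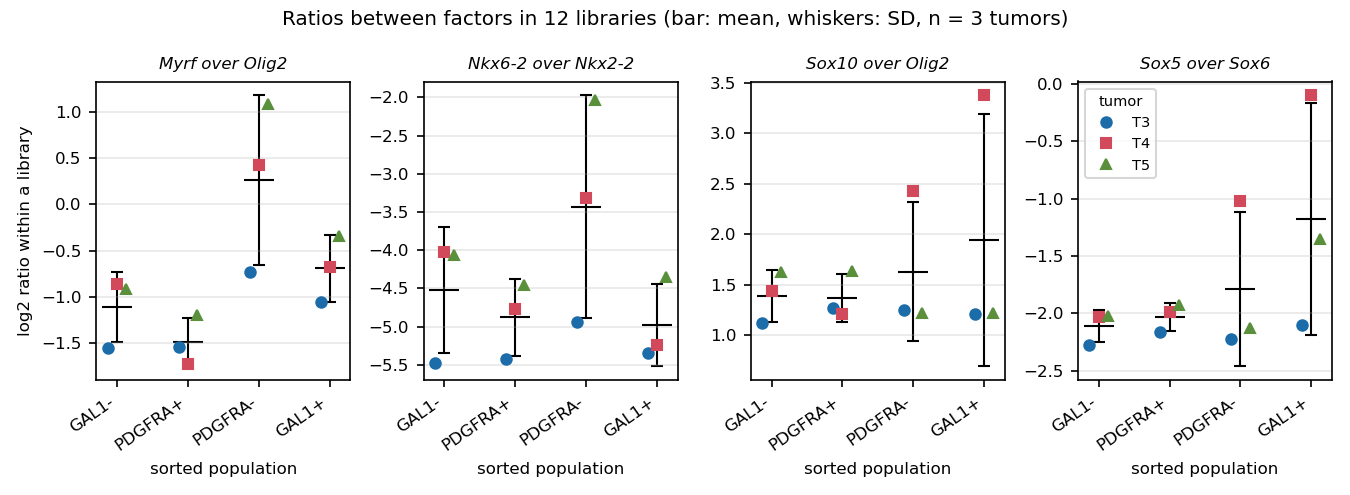
Log2 ratio between a pair of factors within each library (y axis, a separate scale per panel) in the 4 populations (x axis), with 1 point per tumor, a bar at the mean and whiskers of 1 SD (n = 3). *Myrf* over *Olig2* and *Nkx6-2* over *Nkx2-2* are highest in PDGFRA- cells, and *Sox10* over *Olig2* and *Sox5* over *Sox6* are highest in the GAL1+ and PDGFRA- libraries of T4. The GAL1+ points of *Nkx6-2* over *Nkx2-2* rest on 1 to 7 *Nkx6-2* reads.

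Other regulators of the lineage were counted in the same fit. In PDGFRA+ over GAL1+ cells, 6 of 8 other *Sox* genes measured were higher and 0 lower (median 1.83). Of 10 bHLH partners and inhibitors, 5 were higher and 1 lower (median 0.61), and of 5 homeodomain genes 4 were higher (median 2.31). Of 16 cofactors and chromatin genes 9 were higher and 1 lower (median 0.58), and these counts stand beside 20.9% of all genes called higher and 17% called lower. The largest increases were *Gsx1*, a homeobox gene of the ventral forebrain, at 2.98 (standard error 0.44, adjusted p = 0.00182), and *Myt1*, a zinc finger factor of progenitors, at 2.66 (0.39, adjusted p = 0.00183). *Id2*, whose product binds bHLH partners and blocks their DNA binding, was among the genes called lower, at -0.97 (standard error 0.31, adjusted p = 0.0358), and *Zeb2*, a zinc finger factor of differentiating oligodendrocytes that myeloid cells also express, was at -0.88 (0.20, adjusted p = 0.00927). In PDGFRA- over GAL1+ cells the counts higher were 4 of 8, 1 of 10, 2 of 5 and 5 of 16, with 0 lower, beside 13.2% of all genes called higher.

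Genes of 3 stages of the lineage were set beside the factors. In PDGFRA+ over GAL1+ cells all 15 OPC genes were called higher (median 2.28), led by *Dll3*, a Notch ligand, at 3.43 (standard error 0.58, adjusted p = 0.00277), and *Neu4*, a sialidase, at 2.80 (0.40, adjusted p = 0.00173). The list holds *Pdgfra*, whose protein was used for the sort, and without it the other 14 genes were all called higher (median 2.27). Of 11 genes of committed cells 9 were higher (median 1.31), and of 19 genes of mature oligodendrocytes 7 were higher and 1 lower (median 0.45). The lower gene was *Ndrg1*, at -1.35 (standard error 0.24, adjusted p = 0.00353), which many cell types induce under hypoxia. In PDGFRA- over GAL1+ cells 13 of 15 OPC, 9 of 11 committed and 13 of 19 mature genes were higher, with medians of 1.63, 2.20 and 2.27. Between PDGFRA+ and PDGFRA- cells 0 genes of each list passed, beside 0% of all genes, and the medians were 0.78 for OPC, -0.52 for committed and -1.41 for mature genes. The fold changes of *Olig1* (0.96), *Olig2* (0.47), *Sox6* (0.44), *Sox10* (0.21) and *Sox5* (0.20) had the sign of the OPC median. Those of *Myrf* (-1.27), *Nkx6-2* (-1.61), *Sox8* (-0.16) and *Nkx2-2* (-0.15) had the sign of the committed and mature medians. Because these medians have opposite signs, any gene matches either the OPC median or the others, and a sign alone does not place a factor in a stage. No factor was called here, and *Sox10*, *Sox5*, *Sox8* and *Nkx2-2* changed sign in some fits with a tumor or a library left out.

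The plot of gene lists gives their summed levels. OPC genes summed to 6810 to 7975 CPM for GAL1- cells, 5245 to 7643 for PDGFRA+ cells, 1981 to 5314 for PDGFRA- cells and 911 to 2502 for GAL1+ cells. Without *Pdgfra* these sums were 5513 to 6249, 4235 to 5847, 1817 to 4208 and 779 to 2008 CPM. Mature genes summed to 538 to 786, 406 to 544, 861 to 1406 and 305 to 514 CPM in the same order of populations, so that each PDGFRA- library was above all others. *Mog*, a late myelin gene, was at 2.02, 2.29 and 3.20 log2 CPM in PDGFRA- cells of T3, T4 and T5 and at -0.02, -0.98 and 0.18 in PDGFRA+ cells. The PDGFRA- libraries of *Mog* lay above the PDGFRA+ libraries, as those of *Myrf* and *Nkx6-2* did.

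**Figure D4:**
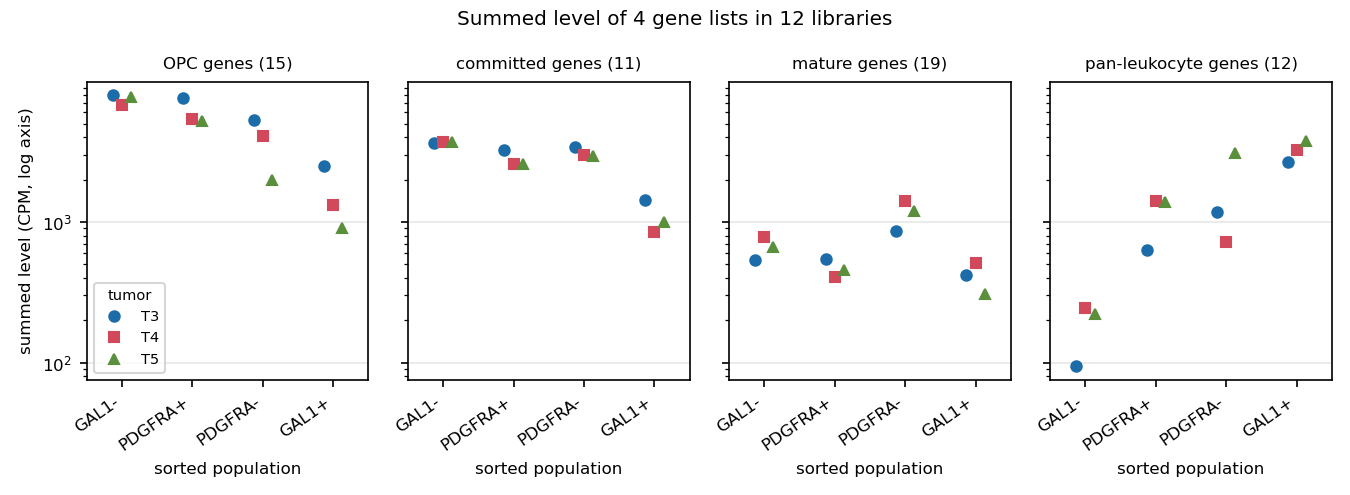
Summed level (CPM, log y axis) of 15 OPC, 11 committed, 19 mature oligodendrocyte and 12 pan-leukocyte genes in the 4 populations (x axis), with 1 point per tumor. OPC genes reach their lowest sums in GAL1+ cells (911 to 2502 CPM), which overlap those of PDGFRA- cells (1981 to 5314 CPM). Mature genes are highest in PDGFRA- cells (861 to 1406 CPM), and pan-leukocyte genes lowest in GAL1- cells (94.1 to 243 CPM).

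The profiles of the 9 factors over the 12 libraries were alike but not uniform. Over the 36 pairs of factors, Pearson's r ran from 0.50 (*Sox5* and *Nkx6-2*) to 0.984 (*Olig1* and *Olig2*), with a median of 0.85. These values describe libraries that share tumors and sorts. The 5 genes whose profile was most like the mean of the factors were *Kank1* (r = 0.998), *Gnao1* (0.997), *Kazn* (0.996), *Irs1* (0.995) and *Dpysl4* (0.995). The gene most like each factor was *B3gat2* for *Olig1* (r = 0.998), *Susd4* for *Olig2* (0.997), *Ncam1* for *Sox10* (0.989), *Neu4* for *Sox8* (0.995), *Apc2* for *Sox6* (0.997), *Kifc3* for *Sox5* (0.991) and *Prkcz* for *Nkx2-2* (0.996). For *Nkx6-2* it was *Cntn2* (0.980), which encodes an adhesion protein of myelinated axons, and for *Myrf* it was *Cldn11* (0.979), which encodes a tight junction protein of myelin.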

How the data were processed

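Bulk RNAseq libraries were made from total RNA of sorted cells with a stranded kit (SMARTer Stranded Total RNAseq v3 Pico). The authors trimmed reads with fastp, aligned them to mm39 with STAR in two-pass mode, counted exons with featureCounts (multi-mapping reads as fractions), removed genes unless their CPM passed 1 in 3 or more samples, and applied TMM and voom. The authors deposited the result as log2 CPM, in which voom adds 0.5 to every count. Reads per library were recovered by taking the lowest value of each library as a count of 0, and 41.2% to 59.1% of recovered values per library were within 0.001 of a whole number, so no count test was used.

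Differences were fitted with limma 3.58.1 (R 4.3.3) on all 12 libraries, with terms for population and tumor, eBayes with a trend, and Benjamini-Hochberg adjustment over 18180 genes; an adjusted p under 0.05 is called. The fit was tested on simulated data. Tumor numbers pair the libraries because same-numbered libraries come from the same tumor; their deviations from population means had a mean correlation of 0.486 (18 pairs, 0.14 to 0.662; genes are not independent replicates). The tumor term removes the mean level of each tumor. With 3 tumors, p-values rest on how the population differences vary between these tumors, pooled over all 4 populations.

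The factors and gene lists were chosen with earlier results of these data known. All 9 factors are named in every comparison. Of the lists of regulators and stage genes, the 2 largest called changes in each direction in PDGFRA+ over GAL1+ cells are named. *Mog*, *Inpp5a* and the cell type marker *Ptprc* were chosen after their values were seen. Profiles most like the factors were taken among genes with a mean log2 CPM of at least 1, predicted genes left out. *Tcf7l2* is in the lists of cofactors and committed genes. Lists of T and NK cell, astrocyte and neuron markers were also counted, and in PDGFRA+ over GAL1+ cells 1 of 8, 4 of 8 and 2 of 8 genes were higher and 1, 0 and 0 lower; 0 of 9 endothelial genes passed.

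Exon lengths came from GENCODE M21 (GRCm38), another build than mm39. Alternatives were no block, a fit to the populations compared, eBayes without trend or robust, voom weights on recovered reads, log2(CPM + 1), a low-level filter, quantile normalization, centring on the sample median, an adjusted p under 0.01 and leaving out each tumor. Leaving out each single library, and the OPC genes without *Pdgfra*, were added after seeing the data. Figures were drawn with matplotlib 3.10.9. Some items are not reported here.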

Additional observations from a re-analysis of the deposited data

How the results depend on the processing

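Of 1026 values (each factor's log2 fold change in 6 comparisons under each alternative), 938 kept their direction and their side of the threshold, 66 lost the call, 14 gained it and 8 changed sign. In GAL1+ over GAL1- cells all 171 kept both. The cause of the changes was not tested. The 8 changes of sign were all in PDGFRA+ over PDGFRA- cells, where no factor was called. Leaving out a tumor or a library gave -0.22 to 0.57 for *Sox10*, -0.18 to 0.69 for *Sox5*, -0.29 to 0.012 for *Sox8* and -0.28 to 0.008 for *Nkx2-2*. *Sox10* and *Sox5* went to -0.22 and -0.18 without T5, to -0.06 and -0.06 without the PDGFRA- library of T5, and to -0.09 and -0.05 without the PDGFRA+ library of T5, while *Nkx2-2* went to 0.008 without the PDGFRA- library of T4 and *Sox8* to 0.012 without the PDGFRA+ library of T3. Counts in this paragraph stand without the share of all genes called in the same fit, so they do not set the factors apart from other genes. In PDGFRA+ over GAL1+ cells, leaving out a tumor gave 6 to 8 factors called and leaving out a library 7 to 9. In PDGFRA- over GAL1+ cells, leaving out a tumor gave 0 to 9 factors called, with 0 only without T4. In PDGFRA+ over GAL1- cells, the fit to the libraries of these populations called 7. In PDGFRA- over GAL1- cells, 0 were called without the block, in the fit to the libraries of these populations, without the trend and at an adjusted p under 0.01, and leaving out a tumor or a library gave 0 to 3, with 0 without T5, without the GAL1- library of T4 or T5 and without the PDGFRA- library of T3 or T5. Without the replicate block the counts called were 8 (PDGFRA+ over GAL1+), 9 (GAL1+ over GAL1-), 6 (PDGFRA- over GAL1+) and 0 in the other 3 comparisons. Depth limits *Nkx6-2* most, at 1 to 83 reads per library.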

Other observations

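The *Sox10* and *Sox5* ratios were highest in the GAL1+ and PDGFRA- libraries of T4, and other genes were highest in the same libraries. These genes were chosen after their values were seen, and no test was made. Of 14651 genes ranked (predicted genes left out), 660 were higher in both libraries than in each of the 10 others, 42 of them by more than 1 on the log2 scale. The largest gaps to the next library were those of *Sfrp5* (2.49), *Tinagl1* (2.37), *Rxrg* (1.93), *Kank4* (1.67) and *Rem1* (1.62). *Foxd3*, a factor known from neural crest development, was at 3.89 log2 CPM in T4 GAL1+ and 5.11 in T4 PDGFRA- cells, and from -2.27 to 3.16 in the other libraries. *Erbb3*, a receptor for neuregulins, was at 7.63 and 8.76 in these libraries and from 3.92 to 7.15 in the others. *Cdh19*, a cadherin of glial cells, was at 6.89 and 7.96 there and from 4.58 to 6.98 in the others, so that its GAL1+ library of T4 was within their range.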
